A study of Homo sapiens with 6 samples.

Results

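The genes described here supply cells with amino acids or belong to the response that the transcription factor ATF4 runs when amino acids are short. They are the rows of the deposited table whose gene symbol was 1 of 35 listed symbols, and all 35 were found among the 60664 genes of the table. RNA was sequenced from SW480 cells, a long-established human line derived from a colon adenocarcinoma, with the genotype WT in both groups. Cells were given either buffer (3 libraries) or Amuc_0904 (3 libraries). Amuc_0904 is written like the locus tags used for genes of Akkermansia muciniphila, a bacterium of the gut. Dose, exposure time and whether replicates were separate cultures are not given in the labels, so p-values measure only the spread between libraries, which may be technical.

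When amino acids run low, uncharged tRNA activates the kinase GCN2, which phosphorylates the initiation factor eIF2. General translation then falls, while the ATF4 mRNA is translated more, so ATF4 protein can rise with little change in its mRNA. ATF4 binds composite C/EBP-ATF elements and drives genes for amino acid transporters, amino acid synthesis, one-carbon metabolism and tRNA charging. In colorectal cancer cells the transporters for glutamine and for leucine are known as suppliers of the mTORC1 growth pathway.

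In cells given Amuc_0904, 2 of the 31 members tested passed (6.45%, against 1.37% of all genes tested). Both were genes of amino acid transporters, and the 6 other transporter members tested did not pass. SLC7A5, which encodes the leucine transporter LAT1, fell 1.44-fold, with a mean of 240.5 ± 22.3 TPM with buffer and 167 ± 6.83 TPM with Amuc_0904 (SD over 3 libraries each). SLC1A5, which encodes the glutamine transporter ASCT2, fell 1.25-fold, with means of 913 ± 33.7 and 729 ± 33.7 TPM. The limma adjusted p over all genes tested was 0.021 for SLC7A5 and 0.044 for SLC1A5, and neither passed once libraries were centred on their medians (limma adjusted p = 0.053 and 0.15). None of the 29 other members tested passed, among them ATF4 itself and its target genes ASNS, TRIB3, CHAC1 and DDIT4. TPM is a share of the transcripts of a library, estimated from reads scaled by transcript length, so levels of different genes can be compared on it approximately.

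Of the 35 members, 31 had at least 1 TPM in at least 3 libraries and were tested. NUPR1, ALDH1L2, SLC7A11 and FGF21 were below this in every library and were not tested. Among the 31, 0 rose and 2 fell at an adjusted p of 0.05 (6.45%), where 1.37% of the 14421 genes tested passed, 0.368% rising and 0.999% falling. Without adjustment 9 of 31 had p under 0.05, against 20.8% of all genes tested. All 3 treated libraries lay below all 3 buffer libraries in 9 members (29.03%), against 20.1% of all genes tested, and above them in 2 members (6.45%), against 7.0%, so 11 of 31 stood apart in either direction, against 27.1%. The members and the further lists were chosen with earlier results of these data known. A difference between their shares and those of all genes tested is therefore a description only and no test. The median log2 fold change of the 31 was -0.09, beside -0.06 over all genes tested, and 23 of the 31 (74.2%) were below 0, against 62.5% of all genes tested. With libraries centred on their medians it was -0.0055, beside 0.018 over all genes tested. With the GC trend removed the order turned, at -0.045 for members and -0.083 over all genes tested with a known GC content. Fold changes below are the mean log2(TPM + 1) with Amuc_0904 less that with buffer, so changes of genes at a few TPM are understated.

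**Figure D1:**
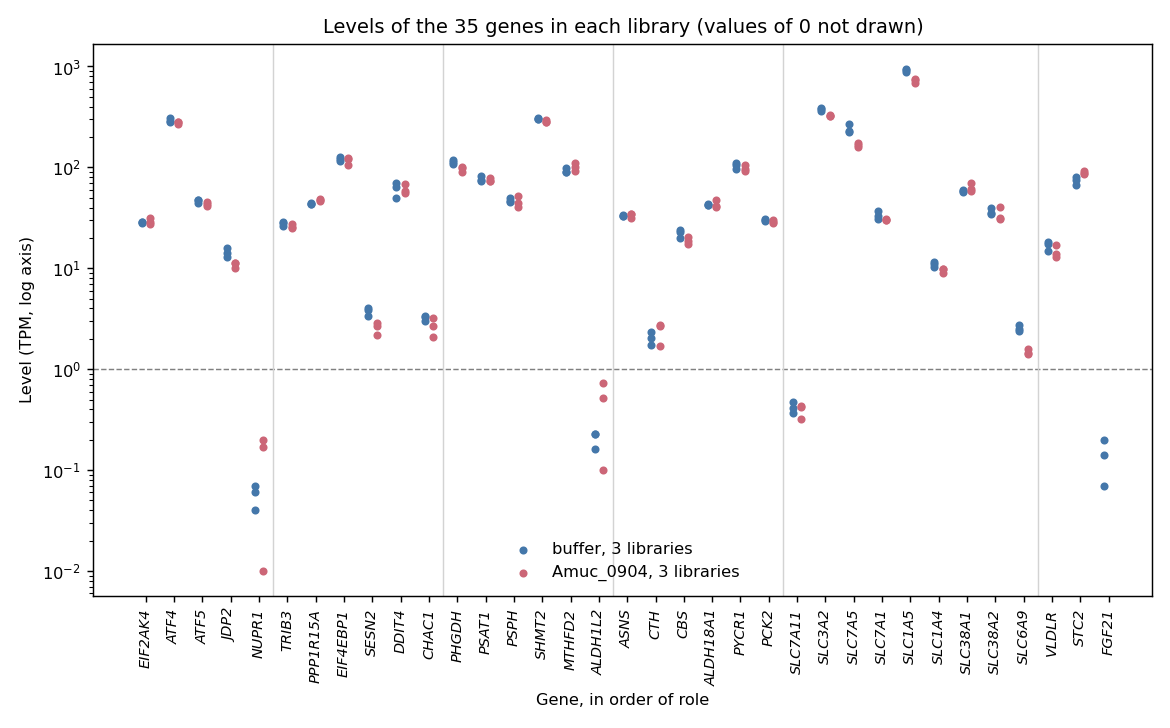
Level of each of the 35 genes in TPM (log axis) in each library, in order of role, with buffer and Amuc_0904 libraries as separate points. The dashed line is 1 TPM, the level used to choose genes for testing, and levels ran from SLC1A5 at a mean of 821 TPM down to 4 genes below the line.

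Across the whole table, genes at 1 TPM or more numbered 14481 to 14586 in buffer and 14244 to 14420 in treated libraries, so every treated library was below every buffer library. The slope of log2 level with transcript GC content lay between 0.0737 and 0.162 per 10 percentage points of GC in buffer libraries and between -0.0428 and 0.0713 in treated ones, with no overlap between the groups. The epithelial markers KRT8, KRT18 and EPCAM were high (summed level of the 8 markers listed, 6512 to 6677 TPM in buffer and 5849 to 5996 TPM in treated libraries), while KRT20, CDX1 and CDH17 stayed below 1 TPM. VIL1 averaged 0.917 TPM with buffer and 0.75 TPM with Amuc_0904. CDX2 was at 30.7, 31.2 and 21.95 TPM in buffer and at 18.2, 19.3 and 18.5 TPM in treated libraries. All treated libraries were lower for CDX2, which did not pass (log2 fold change -0.54, limma adjusted p = 0.077). The sum was mostly KRT8 and KRT18. The summed level of 6 leukocyte markers was 3.42 to 4.32 TPM in buffer and 5.20 to 5.84 TPM in treated libraries, with PTPRC, the general leukocyte marker, at 0 in all 6. Sums over fibroblast markers (at most 3.76 TPM) and endothelial markers (at most 0.80 TPM) were as low. The part of these differences in gene number, GC slope and marker levels in the results below was not tested, except that values with the GC trend removed are given for the called genes.

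To show the sequence before the genes that fell, the 250 bases before the outermost RefSeq start of SLC7A5 and of SLC1A5 are given below, from RefSeq on GRCh38.p14, on the strand of the gene. The SLC7A5 stretch is chr16:87869508-87869757 and the SLC1A5 stretch is chr19:46788595-46788844, both on the minus strand and outside the GENCODE 29 transcripts of their gene. The SLC1A5 stretch overlaps the annotated transcript of AC008622.2 on the other strand. Capitals mark a match to the E-box CACGTG, a motif chosen after the values were seen, which the SLC1A5 stretch does not hold.
SLC7A5: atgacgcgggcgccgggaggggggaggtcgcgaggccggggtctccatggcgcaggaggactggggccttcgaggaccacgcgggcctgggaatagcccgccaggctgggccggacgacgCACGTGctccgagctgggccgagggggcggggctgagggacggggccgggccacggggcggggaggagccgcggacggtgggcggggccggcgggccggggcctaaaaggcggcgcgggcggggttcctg
SLC1A5: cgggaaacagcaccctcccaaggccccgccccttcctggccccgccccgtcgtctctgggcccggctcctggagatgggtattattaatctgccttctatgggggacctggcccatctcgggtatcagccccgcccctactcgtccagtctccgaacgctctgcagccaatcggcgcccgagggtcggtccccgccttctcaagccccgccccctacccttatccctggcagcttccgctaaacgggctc

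The SLC7A5 stretch had a GC content of 79.6% with 34 CG dinucleotides, and the SLC1A5 stretch 66.8% with 19. The E-box in the SLC7A5 stretch begins 130 bases before the start site. Neither stretch holds the ATF4 composite core TGATGNAA or the cyclic AMP element TGACGTCA on either strand.

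The composite core TGATGNAA was searched on both strands in the 300 bases around each RefSeq start (250 before, 50 after). RefSeq promoters were matched for 28 of the 35 members, 44 promoters in all. The core was found in 9 of the 44 (20.5%), against 3.62% of all 35116 promoters of the same length. The E-box CACGTG was found in 5 of the 44 (11.4%, against 7.26% of all), namely those of SLC7A5, an inner start of SLC1A5, ALDH18A1 and 2 overlapping starts of ATF4, and the element TGACGTCA in 1 (PPP1R15A, against 1.85% of all). No match in a member overlapped a match of another of these motifs. The members include known ATF4 targets by choice, and a match is a description of the letters only.

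The 9 members with the core were SLC1A5, ASNS, SLC1A4, JDP2, SLC7A1, SLC3A2, SLC38A1, CHAC1 and FGF21. Of these SLC1A5 fell, FGF21 was not tested and the other 7 did not pass. Windows around the core are shown for 5 of them, to set the core of a gene that fell beside cores of genes that did not pass, with the core or its reverse complement in capitals. They lie at chr19:46784893-46784922 (minus strand, UTR exon, at an inner start), chr7:97872458-97872487 (minus strand, UTR exon, where AC079781.5 is also annotated), chr2:64989381-64989410 (plus strand, intron), chr14:75427995-75428024 (plus strand, intron) and chr13:29595663-29595692 (minus strand, UTR exon), with annotation from GENCODE 29.
SLC1A5: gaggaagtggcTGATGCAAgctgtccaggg
ASNS: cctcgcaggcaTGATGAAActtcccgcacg
SLC1A4: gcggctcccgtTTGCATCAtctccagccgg
JDP2: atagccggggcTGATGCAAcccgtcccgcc
SLC7A1: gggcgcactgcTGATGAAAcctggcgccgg

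SLC1A5 and JDP2 share the form TGATGCAA, which SLC1A4, CHAC1 and FGF21 hold on the other strand. ASNS, SLC7A1 and SLC38A1 hold TGATGAAA, and SLC3A2 holds TTACATCA. Among the 5 genes shown the log2 fold changes were -0.33 for SLC1A5, -0.36 for JDP2, -0.19 for SLC1A4, -0.13 for SLC7A1 and 0.002 for ASNS. Among the other genes tested they were -0.21 for CHAC1, -0.21 for SLC3A2 and 0.11 for SLC38A1. Whether the form of the core goes with the fold change was not tested.

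The sensor and transcription factor genes did not pass. EIF2AK4, which encodes GCN2, was at 28.5, 28.7 and 28.1 TPM in buffer replicates 1, 2 and 3 and at 27.4, 28.6 and 31.5 TPM in Amuc_0904 replicates 1, 2 and 3. ATF4 was at 309, 283 and 286 TPM in buffer and at 284, 284 and 268 TPM in treated libraries. The groups overlapped for both genes. The log2 fold change of ATF4 was -0.07 (SE 0.06, 95% interval -0.20 to 0.07, limma adjusted p = 0.55), and after each library was centred on its median it was 0.01. ATF5, a related factor of the mitochondrial stress response, averaged 46.1 ± 1.85 TPM with buffer and 43.4 ± 1.84 TPM with Amuc_0904, again with overlap.

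JDP2, a bZIP repressor that pairs with AP-1 and ATF proteins, was the transcription factor gene whose groups stood apart. It was at 14.1, 15.9 and 13.0 TPM in buffer and at 10.04, 11.3 and 11.3 TPM in treated libraries. All treated libraries were lower, but the difference did not pass (log2 fold change -0.36, SE 0.10, limma adjusted p = 0.10). NUPR1, a stress-induced nuclear protein gene, did not exceed 0.20 TPM in any library.

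Among regulators and feedback genes 0 of 6 passed. TRIB3, a pseudokinase that restrains ATF4, averaged 27.7 ± 1.38 TPM with buffer and 26.0 ± 1.26 TPM with Amuc_0904. PPP1R15A encodes GADD34, which directs the dephosphorylation of eIF2. It was at 43.3, 44.8 and 42.9 TPM in buffer and at 47.4, 48.5 and 46.3 TPM in treated libraries, so every treated library was higher, by a log2 fold change of 0.12 (SE 0.06, limma adjusted p = 0.32).

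EIF4EBP1, which encodes the translation repressor 4E-BP1, was at 116, 122 and 127 TPM in buffer and at 123, 121 and 106 TPM in treated libraries. The groups overlapped, and the sign of the small difference (log2 fold change -0.06) turned with centring (0.02) and after GC removal (0.09). DDIT4, an mTORC1 inhibitor gene, varied most between libraries of a group among the tested members (pooled SD 0.22 on the log2 scale), from 49.2 to 70.1 TPM in buffer and from 55.4 to 68.6 TPM in treated libraries. Its log2 fold change was -0.003, with a 95% interval of -0.31 to 0.31.

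The 2 remaining regulators were low. SESN2, which encodes the leucine sensor Sestrin2, was at 3.38, 3.82 and 4.0 TPM in buffer and at 2.20, 2.67 and 2.85 TPM in treated libraries. All treated libraries were lower, and the difference did not pass (log2 fold change -0.41, SE 0.13, limma adjusted p = 0.14). CHAC1, a glutathione-degrading enzyme gene and a sensitive ATF4 target, averaged 3.21 ± 0.169 TPM with buffer and 2.67 ± 0.591 TPM with Amuc_0904, with overlap.

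Serine is made from a glycolytic intermediate by PHGDH, PSAT1 and PSPH, and its carbon enters the mitochondrial folate cycle through SHMT2, MTHFD2 and ALDH1L2. None of these enzyme genes passed. PHGDH, the first step, was at 114, 118 and 108 TPM in buffer and at 89.4, 99.9 and 98.3 TPM in treated libraries. Every treated library was lower, and the log2 fold change was -0.24 (SE 0.07, limma adjusted p = 0.10).

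The following steps of this route differed less between the groups. PSAT1 averaged 76.5 ± 4.37 TPM with buffer and 75.3 ± 2.94 TPM with Amuc_0904, and PSPH 47.4 ± 2.45 and 45.6 ± 5.88 TPM, with overlap for both. SHMT2 was at 301, 309 and 303 TPM in buffer and at 280.1, 297 and 280.3 TPM in treated libraries. Treated libraries were lower by a narrow margin (log2 fold change -0.09, SE 0.05, limma adjusted p = 0.37). MTHFD2 averaged 93.3 ± 4.60 TPM with buffer and 101 ± 9.25 TPM with Amuc_0904, with overlap, and ALDH1L2 did not exceed 0.73 TPM.

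Other amino acid enzyme genes overlapped between the groups in 6 of 6 cases, and 0 passed. ASNS, asparagine synthetase and a standard readout of ATF4 activity, was at 33.4, 32.9 and 33.2 TPM in buffer and at 34.2, 31.3 and 34.3 TPM in treated libraries. Its log2 fold change was 0.002, with a 95% interval from -0.15 to 0.16. The proline synthesis genes ALDH18A1 (42.8 ± 0.622 and 43.0 ± 3.68 TPM) and PYCR1 (104 ± 7.44 and 97.7 ± 7.05 TPM) had limma adjusted p of 0.98 and 0.57. PCK2, the mitochondrial PEP carboxykinase, averaged 30.0 ± 0.773 TPM with buffer and 28.9 ± 0.942 TPM with Amuc_0904.

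Cysteine can be made from homocysteine by CBS and CTH. CBS averaged 22.1 ± 1.99 TPM with buffer and 18.8 ± 1.70 TPM with Amuc_0904, the largest difference of the 6 enzyme genes just described (log2 fold change -0.23, limma adjusted p = 0.24). CTH was near 2 TPM in both groups (2.05 ± 0.30 and 2.37 ± 0.592 TPM). SLC7A11, the cystine importer of system xc-, did not exceed 0.47 TPM in any library.

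**Figure D2:**
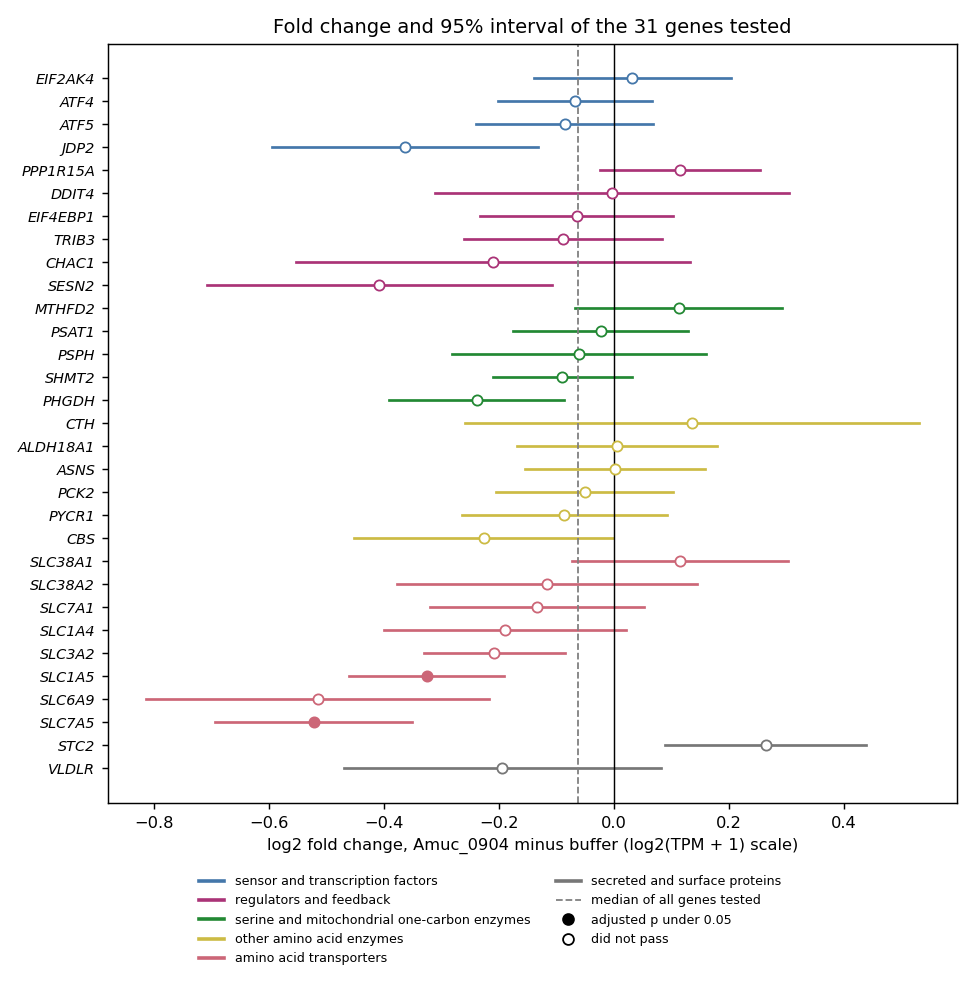
Log2 fold change of each of the 31 genes tested (points) with its 95% interval (lines), grouped by role, on the log2(TPM + 1) scale. Filled points passed an adjusted p of 0.05, which were SLC7A5 at -0.52 and SLC1A5 at -0.33, and the dashed line is the median of all genes tested (-0.06).

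Transporters were the role group with the lowest median log2 fold change, -0.20 over 8 tested genes (-0.12 with libraries centred, -0.23 with the GC trend removed). Of these 8 genes 2 fell (25%, against 0.999% of all genes tested) and 6 did not pass, in a list chosen with earlier results known. Over all genes tested the median was -0.06 (0.018 with libraries centred, -0.083 with the GC trend removed). The log2 fold change was below 0 in 7 of the 8, against 62.5% of all genes tested, and all treated libraries lay below all buffer libraries in 5 of the 8, against 20.1% of all genes tested. SLC7A5 (ENSG00000103257, chromosome 16 from 87830023 to 87869488, minus strand, GENCODE 29 on GRCh38) was at 226, 266 and 229 TPM in buffer and at 161, 174 and 165 TPM in treated libraries. Buffer replicate 2 was the highest, and the groups were well apart. The log2 fold change was -0.52 (SE 0.08, 95% interval -0.69 to -0.35, limma adjusted p = 0.021). Fewer cells that express a gene and less RNA per cell cannot be told apart in such bulk samples.

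SLC1A5 (ENSG00000105281, chromosome 19 from 46774883 to 46788594, minus strand) was the member with the highest level. It was at 876, 942 and 920.4 TPM in buffer and at 741, 754 and 690.4 TPM in treated libraries. Every treated library of SLC1A5 was lower (log2 fold change -0.33, SE 0.06, 95% interval -0.46 to -0.19, limma adjusted p = 0.044). SLC7A5 overlaps 1 annotated gene on its own strand and 1 on the other, and SLC1A5 overlaps 2 on the other strand. Reads of the neighbour on the strand of SLC7A5 could be included under any strand protocol. The protocol is not given in the sources used here, so reads of the other neighbours could be included too.

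With 1 library left out, the SLC7A5 call held in 1 of 6 fits and the SLC1A5 call in 0. The log2 fold changes in these fits stayed between -0.56 and -0.45 for SLC7A5 and between -0.35 and -0.29 for SLC1A5. In the same fits between 35 and 112 of all genes tested passed, against 197 with every library. The call of SLC7A5 held without buffer replicate 1 (limma adjusted p = 0.0497) and ended without buffer replicate 2 (0.061), buffer replicate 3 (0.051) or Amuc_0904 replicate 1 (0.090), 2 (0.058) or 3 (0.057). That of SLC1A5 ended without buffer replicate 1 (0.084), 2 (0.17) or 3 (0.10) and without Amuc_0904 replicate 1 (0.14), 2 (0.085) or 3 (0.076). Centring each library on its median also ended both calls in limma, with log2 fold changes of -0.44 for SLC7A5 (limma adjusted p = 0.053) and -0.24 for SLC1A5 (limma adjusted p = 0.15). So did testing all 30992 genes above 0 in any library (limma adjusted p = 0.11 and 0.16). In a table rescaled without ribosomal protein genes and genes of the mitochondrial genome, SLC1A5 was at a limma adjusted p of 0.0502. GC content was 61.1% for the longest SLC7A5 transcript and 61.3% for that of SLC1A5, beside a median of 49.2% over all genes tested. With each library's GC trend removed both calls held, at log2 fold changes of -0.42 (limma adjusted p = 0.031) and -0.22 (0.048). They also held with quantile normalization, at -0.49 (limma adjusted p = 0.034) and -0.30 (0.048).

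LAT1 works as a pair with the heavy chain 4F2hc, encoded by SLC3A2, which also carries other light chains. SLC3A2 was at 359, 381 and 386 TPM in buffer and at 323, 330.3 and 321 TPM in treated libraries. All treated libraries were lower, but the gene did not pass (log2 fold change -0.21, SE 0.05, limma adjusted p = 0.090). The related light chain gene SLC7A8 (LAT2), from the list of other transporters and no member, fell 1.54-fold. It was at 88.0, 91.1 and 77.4 TPM in buffer and at 54.4, 55.3 and 57.4 TPM in treated libraries (log2 fold change -0.61, SE 0.07, limma adjusted p = 0.013). Its call ended without buffer replicate 1 (0.053), buffer replicate 2 (0.061) or Amuc_0904 replicate 1 (0.056), and with all genes above 0 tested (0.082).

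In a comparison chosen after these values were seen, the summed level of 5 light chain genes that pair with SLC3A2 (SLC7A5, SLC7A6, SLC7A7, SLC7A8 and SLC7A11) was 359, 402 and 348 TPM in buffer and 253, 268 and 264 TPM in treated libraries. The level of SLC3A2 was 1.02 ± 0.0825 of this sum in buffer and 1.24 ± 0.0318 of it in treated libraries. The ratio was between 0.948 and 1.11 in buffer and between 1.22 and 1.28 in treated libraries, so the groups did not overlap. SLC7A5 and SLC7A8, which both fell, are part of the sum, so the ratio follows from values given above and is no separate result. SLC7A5 made up 65.0% ± 1.73 of the light chain sum in buffer and 63.7% ± 1.21 in treated libraries, with overlap. With 3 libraries per group an exact permutation test cannot go below a two-sided p of 0.1, and none is given for these ratios.

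**Figure D3:**
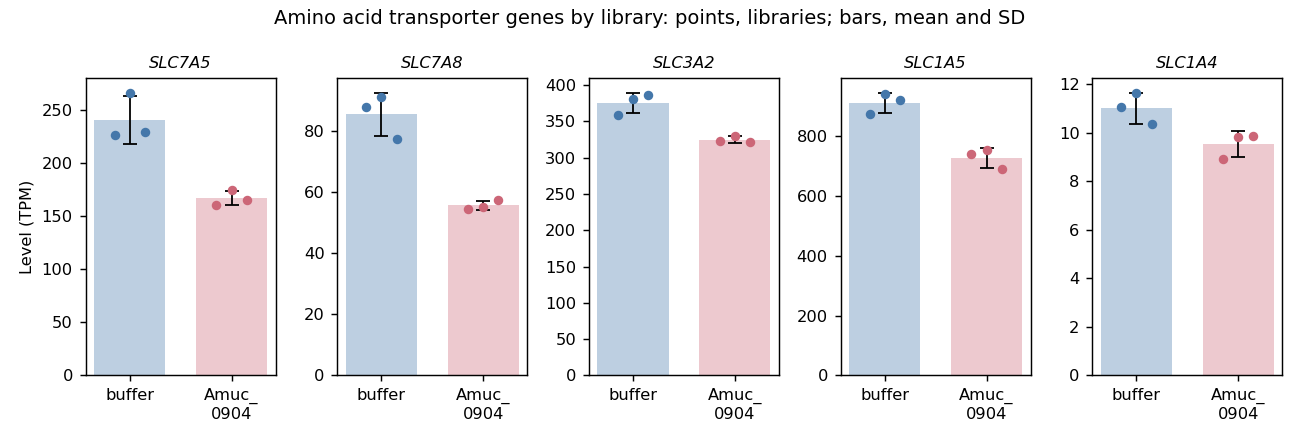
Levels in TPM of 5 amino acid transporter genes in each library (points), with the mean (bars, from 0) and SD (error bars) of the 3 libraries of each group. The 5 genes are a selection, and SLC7A1, SLC38A1 and SLC38A2, tested members whose groups overlapped, are not drawn. In each gene drawn all Amuc_0904 libraries lie below all buffer libraries, as in 20.1% of all genes tested. SLC7A5, SLC7A8 and SLC1A5 passed an adjusted p of 0.05, as did 1.37% of all genes tested, while SLC3A2 and SLC1A4 did not.

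The remaining transporter members did not pass. SLC1A4, a transporter of small neutral amino acids, was at 11.1, 11.6 and 10.4 TPM in buffer and at 8.93, 9.84 and 9.86 TPM in treated libraries, all of them lower (log2 fold change -0.19, limma adjusted p = 0.29). SLC6A9, the glycine transporter GlyT1, was at 2.49, 2.73 and 2.40 TPM in buffer and at 1.40, 1.58 and 1.45 TPM in treated libraries. All treated libraries were lower here too, with mean TPM 1.72-fold lower. The log2 fold change was -0.51 (SE 0.13) and did not pass (limma adjusted p = 0.086), and with a pseudocount of 0.1 it was -0.74 (limma adjusted p = 0.093).

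The groups overlapped for the last 3 transporter members tested. SLC7A1, the cationic amino acid transporter CAT1, averaged 33.7 ± 3.14 TPM with buffer and 30.6 ± 0.484 TPM with Amuc_0904. SLC38A2, the adaptive glutamine transporter SNAT2 and a known ATF4 target, was at 36.7 ± 2.81 and 34.0 ± 5.46 TPM. SLC38A1 (SNAT1) was the 1 tested transporter member above 0, at 58.1 ± 1.41 and 63.2 ± 6.68 TPM (limma adjusted p = 0.46). The summed level of all 9 transporter members averaged 1671 ± 64.3 TPM with buffer and 1359 ± 31.5 TPM with Amuc_0904, of which SLC1A5 held 54.6% ± 0.405 and 53.6% ± 1.51.

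**Figure D4:**
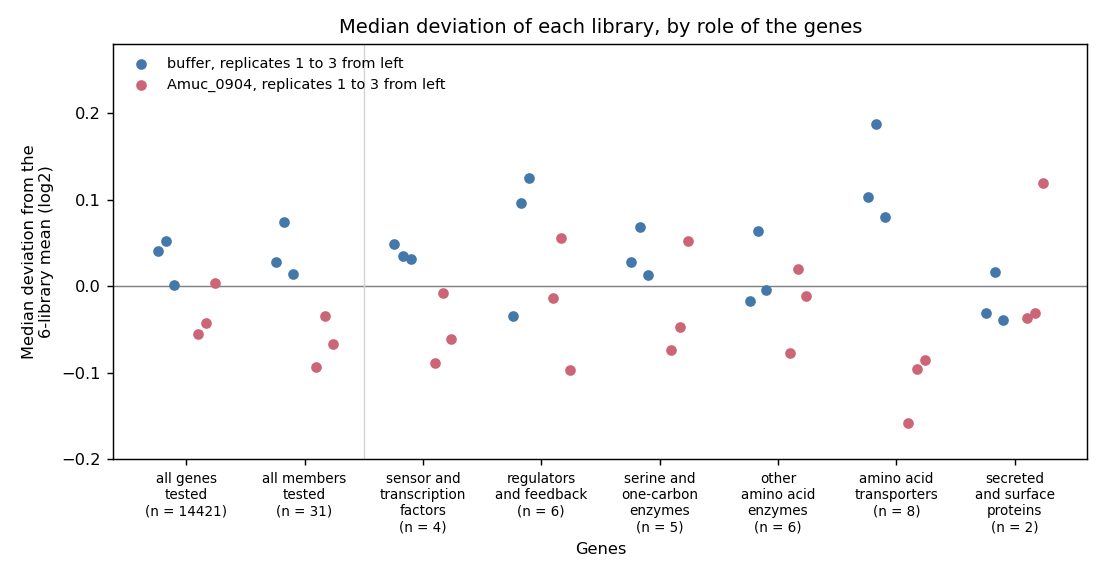
Median deviation of each library from the mean of the 6 libraries, on the log2 scale, over all genes tested, over the members tested and over each role group, with the libraries of each group as separate points. For transporters the buffer libraries lie between 0.08 and 0.19 and the Amuc_0904 libraries between -0.16 and -0.09, while over all genes tested the libraries lie between -0.05 and 0.05.

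The genes for secreted and surface proteins of this set gave the highest log2 fold change among members. STC2, a secreted glycoprotein of the stress response, was at 67.0, 74.7 and 80.1 TPM in buffer and at 86.1, 92.2 and 87.9 TPM in treated libraries. All treated libraries were higher, and the difference did not pass (log2 fold change 0.26, SE 0.08, limma adjusted p = 0.11). VLDLR, a lipoprotein receptor, averaged 16.8 ± 1.71 TPM with buffer and 14.6 ± 2.15 TPM with Amuc_0904, with overlap. FGF21, a stress hormone, was at 0.20, 0.14 and 0.07 TPM in buffer and was listed at 0 in all 3 treated libraries.

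The wider pathway was read from 6 lists with 132 further genes, of which 124 were tested. Of these 0 rose and 2 fell (1.61%, near the 0.999% of all genes tested that fell), SLC7A8 and CEBPB. Non-overlap counts of the lists below stand beside 7.0% of all genes tested with all treated libraries above and 20.1% with all below. These lists too were chosen with earlier results known, so the counts are descriptions only. CEBPB, a bZIP factor that can pair with ATF4, was at 27.3, 26.1 and 23.99 TPM in buffer and at 17.4, 16.7 and 11.9 TPM in treated libraries. All treated libraries were lower (log2 fold change -0.73, SE 0.14, limma adjusted p = 0.048). The call of CEBPB held without Amuc_0904 replicate 3 (0.047) and ended without any other single library (up to 0.17), after GC removal (0.065), centring (0.10) or quantile normalization (0.093), with a pseudocount of 0.1 (0.052), with all genes above 0 tested (0.18), and in the table rescaled without ribosomal and mitochondrial genes (0.064). The rest of the 22 bZIP partners and stress-response targets did not pass, and the list median was -0.01. All treated libraries lay above all buffer libraries in 5 of the 22 (22.7%) and below in 3 (13.6%).

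The 5 with treated libraries above were BATF3, LAMP3, SQSTM1, TNFRSF10B and DDIT3, named after their values were seen, and none of them passed. Of the 3 with treated libraries below, CEBPB is given above and the others are not named. BATF3, a bZIP factor of the ATF-like family, was at 1.99, 2.82 and 2.72 TPM in buffer and at 5.81, 5.90 and 4.08 TPM in treated libraries. It had the highest log2 fold change of the list and did not pass (0.83, SE 0.17, limma adjusted p = 0.053). SQSTM1, which encodes the autophagy receptor p62, was at 464, 473 and 499.8 TPM in buffer and at 549, 574 and 510.3 TPM in treated libraries, all higher (log2 fold change 0.18, limma adjusted p = 0.15). It passed with the GC trend removed (0.26, limma adjusted p = 0.045) and in no other setting.

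The 20 cytosolic aminoacyl-tRNA synthetase genes, which charge tRNA and include many ATF4 targets, were all tested and 0 passed. Their median log2 fold change was 0.03, with 12 above 0 and 8 below, and all treated libraries lay above all buffer libraries in 5 of the 20 (25%) and below in 3 (15%). RARS1 (arginine) averaged 72.7 ± 3.01 TPM with buffer and 86.8 ± 2.20 TPM with Amuc_0904, with all treated libraries higher (log2 fold change 0.25, limma adjusted p = 0.077). MARS1 (methionine) was at 216, 323 and 184 TPM in buffer and at 187, 210.0 and 192 TPM in treated libraries. Buffer replicate 2 stood far above the others, and the log2 fold change of MARS1 went from -0.25 to -0.02 without it (limma adjusted p = 0.46 and 0.94).

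Among eIF2 kinases, eIF2 and eIF2B, 0 of 14 passed, with a median of -0.0004, all treated libraries above in 2 and below in 1. GCN1, which couples stalled ribosomes to GCN2, was at 38.6, 48.6 and 34.8 TPM in buffer and at 28.1, 30.6 and 30.1 TPM in treated libraries, all lower (log2 fold change -0.43, limma adjusted p = 0.10). IMPACT, an inhibitor of GCN2 activation, averaged 7.20 ± 0.194 TPM with buffer and 8.65 ± 1.55 TPM with Amuc_0904, with overlap.

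Of 23 other amino acid transporter genes 17 were tested, 1 fell (SLC7A8) and 16 did not pass. Their median log2 fold change was -0.13, with 15 of 17 below 0 (88.2%, against 62.5% of all genes tested). With libraries centred their median was -0.053, beside 0.018 over all genes tested, and 11 of 17 were below 0. All treated libraries lay below all buffer libraries in 6 of 17 (35.3%, against 20.1%) and above in 0 (against 7.0%). In the 22 tested genes for other amino acid and folate enzymes 0 passed, with a median of -0.04, all treated libraries above in 1 and below in 4. ASS1, argininosuccinate synthetase, averaged 112 ± 2.66 TPM with buffer and 131 ± 2.22 TPM with Amuc_0904 (log2 fold change 0.23, limma adjusted p = 0.077), and SHMT1, the cytosolic counterpart of SHMT2, 53.3 ± 1.10 and 47.5 ± 1.96 TPM (adjusted p = 0.19).

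Genes that signal amino acid levels to mTORC1 did not pass in 29 of 29 tested cases (median -0.07), with all treated libraries above in 1 and below in 9 (31.03%). TSC2, an mTORC1 inhibitor, was at 27.3, 30.6 and 25.8 TPM in buffer and at 17.3, 18.4 and 21.4 TPM in treated libraries, all lower, with a limma adjusted p of 0.051 (log2 fold change -0.53, SE 0.10). TSC2 passed only with the filter raised to 5 TPM (limma adjusted p = 0.030) and without Amuc_0904 replicate 3 (0.048). In the other settings, among them centring, quantile normalization and GC removal, it did not pass. WDR59, a subunit of the GATOR2 complex, averaged 15.3 ± 3.45 TPM with buffer and 10.2 ± 1.07 TPM with Amuc_0904 (log2 fold change -0.53, limma adjusted p = 0.11).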

How the data were processed

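Total RNA of SW480 cells given buffer or Amuc_0904 (3 libraries each) was sequenced. The authors deposited 1 table of TPM per gene, a share of each library's transcripts scaled by length. HISAT2, StringTie, RSEM and edgeR are named, without versions or roles, per the submitters' processing notes, which also name a mouse build (GRCm38.p6) although the identifiers are human Ensembl genes. Per library the listed values add up to 996107 to 997036. TPM keeps no read numbers, so depth is unknown and no counting interval is given, and a value of 0 may be a failed estimate.

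Genes with at least 1 TPM in at least 3 libraries (14421) were tested on log2(TPM + 1) by limma 3.58.1 (eBayes with a trend) in R 4.3.3, Amuc_0904 against buffer with no covariate, and two-sided p-values were adjusted over all of them by the Benjamini-Hochberg method, with a threshold of 0.05. The steps were tested on simulated data. The members and lists were chosen with earlier results of these data known. Library values are given for members that passed, that stood apart between groups with a mean of at least 5 TPM, or that were among the 6 highest in level, and for a few more whose choice followed a look at their values. From each further list, genes that passed were named (up to 4) or, where none did, the 2 with the largest absolute log2 fold change among those averaging at least 5 TPM. GC content is that of the longest GENCODE 29 transcript and was known for 99.0% of genes tested. GC removal subtracted a loess trend from each library and kept its median. Alternatives changed the pseudocount, the filter, the scaling, the genes included, the threshold, the replicate block or the libraries. Promoters came from RefSeq (GRCh38.p14).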

Additional observations from a re-analysis of the deposited data

How the results depend on the processing

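Of all genes tested 197 passed (53 rose, 144 fell), and this count was 432 with a 5 TPM filter, 85 with libraries centred (43 rose, 42 fell), 102 with quantile normalization (46 rose, 56 fell), 9 with all genes above 0 tested, 29 at an adjusted p of 0.01 and between 35 and 112 with 1 library left out. With the GC trend removed it was 163 (66 rose, 97 fell). Members called numbered 2, and this was 0 with centring, with all genes above 0 tested or at an adjusted p of 0.01, 1 with the table rescaled without ribosomal and mitochondrial genes, and between 0 and 1 with 1 library left out. Other pathway genes called numbered 2, and this was 4 with the 5 TPM filter, 1 with centring, a pseudocount of 0.1, quantile normalization or the rescaled table, 0 with all genes above 0 tested or at an adjusted p of 0.01, and between 0 and 3 with 1 library left out. With the replicate number as a block, 80 genes passed, among them 1 member (SLC7A5, limma adjusted p = 0.033) and not SLC1A5 (0.088). Correlations of deviations between libraries of the same number were -0.03, 0.08 and -0.09, so the numbers were not taken as pairs. The median log2 fold change of members (-0.09) was -0.045 with the GC trend removed, -0.0055 with centring, -0.040 with quantile normalization and between -0.12 and -0.071 with 1 library left out. Over all genes tested the median was -0.083 with the GC trend removed, 0.018 with centring and 0.0067 with quantile normalization. The sign turned in members that did not pass. With the GC trend removed it did so for EIF2AK4 (-0.012), ATF5 (0.0058), TRIB3 (0.010), EIF4EBP1 (0.086), DDIT4 (0.072), ASNS (-0.045), ALDH18A1 (-0.013), PYCR1 (0.020) and PCK2 (0.054). With centring it did so for ATF4 (0.012), EIF4EBP1 (0.016), DDIT4 (0.078), PSAT1 (0.058), PSPH (0.020) and PCK2 (0.030), with quantile normalization for DDIT4 (0.060), PSAT1 (0.035), PSPH (0.0095) and PCK2 (0.029), and after rescaling for DDIT4 (0.024) and PSAT1 (0.0041). With 1 library left out the range crossed 0 for EIF2AK4 (-0.023 to 0.075), EIF4EBP1 (-0.10 to 0.00073), DDIT4 (-0.15 to 0.10), PSAT1 (-0.054 to 0.023), PSPH (-0.16 to 0.015), ASNS (-0.020 to 0.044) and ALDH18A1 (-0.062 to 0.053). The cause of these shifts was not tested. Depth is unknown, so the precision of low genes such as SESN2, CHAC1, CTH and SLC6A9 could not be set from read numbers.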
